A study of Mus musculus with 28 samples.

Results

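The genes examined here are 9 genes listed as identity genes of the quiescent hepatic stellate cell, the vitamin A-storing cell of the liver: *Lrat*, *Reln*, *Des*, *Pdgfra*, *Pdgfrb*, *Ngfr*, *Hgf*, *Colec10*, and *Colec11*. They were taken by gene symbol, and all 9 were found by their Ensembl identifiers among the 21935 genes of the count table. All 9 were also among the 12580 genes that remained after the filter on low counts. Stellate cells themselves were not counted here. The question put to these genes was whether markers of stellate cell identity moved with treatment, or whether the genes of stellate cell activation moved apart from them.

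Hepatic mRNA was sequenced from 28 male B6.V-Lep ob/JRj mice, which lack leptin because of the ob allele. The mice were obtained at 5 weeks of age and fed the Amylin liver NASH (AMLN) diet, which is rich in fat, fructose, and cholesterol. After 14 weeks on the diet, vehicle (n = 10), obeticholic acid (OCA) 30 mg/kg (n = 9), or INT-787 30 mg/kg (n = 9) was given by mouth each day for 2 weeks. All 3 groups therefore shared the genotype and the diet, no lean or chow-fed group was analyzed here, and the vehicle mice stand for diseased liver. OCA and INT-787 are agonists of the farnesoid X receptor (FXR), a nuclear receptor for bile acids.

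Stellate cells lie between the hepatocytes and the sinusoidal endothelium and hold most of the body's retinyl esters in lipid droplets. In injured liver they lose these droplets, take on a contractile and matrix-producing state, and become the main source of fibrillar collagen. In whole-liver RNA, fewer cells of a type and less mRNA per cell cannot be told apart, and several of these genes are also known from other cells, *Pdgfra* and *Pdgfrb* from portal fibroblasts and *Des* from smooth muscle.

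The sequences shown are those just upstream of *Lrat* and *Des*, because these were the genes that changed. Each is the RefSeq window of 250 bases that ends at the transcription start (build GRCm38.p6), written 5′ to 3′ on the strand of the gene, at chr3:82903975-82904224 on the minus strand for *Lrat* and chr1:75360042-75360291 on the plus strand for *Des*. Capitals mark the matches to short promoter motifs on either strand, which were the CCAAT box, the TATA motif (letters TATAA), the GC box (letters GGGCGG, which reads CCGCCC when found on the other strand), and an E box (letters CAGCTG).
Lrat: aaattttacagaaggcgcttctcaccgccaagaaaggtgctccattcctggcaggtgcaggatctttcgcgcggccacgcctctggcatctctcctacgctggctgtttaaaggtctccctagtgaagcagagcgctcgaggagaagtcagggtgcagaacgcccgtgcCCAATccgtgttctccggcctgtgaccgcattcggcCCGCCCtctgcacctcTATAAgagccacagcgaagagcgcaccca
Des: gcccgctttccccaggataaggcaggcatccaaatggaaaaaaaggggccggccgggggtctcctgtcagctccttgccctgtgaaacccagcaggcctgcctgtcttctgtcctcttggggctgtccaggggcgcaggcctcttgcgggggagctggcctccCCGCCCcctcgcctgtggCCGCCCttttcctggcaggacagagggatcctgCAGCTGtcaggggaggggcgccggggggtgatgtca

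In the *Lrat* window the CCAAT box began 81 bases, the GC box 45 bases, and the TATA motif 29 bases before the start. In the *Des* window, GC boxes began 87 and 69 bases and the E box 36 bases before the start. Both strands of 8 windows of 7 of the genes were searched. The GC box was present in 4 of the 8 (*Lrat*, *Des*, *Reln*, and *Ngfr*), against 32.7% of 32851 mouse windows of the same length, and the E box CAGCTG in 3 of the 8 (*Des*, *Ngfr*, and *Colec11*), against 13%. The CCAAT box and the TATA motif were found only in the *Lrat* window among the 8, against 33.8% and 22.8% of all windows, and the motif with the letters AGATAA only in that of *Colec11*, against 9.99%. The hexamer AGGTCA, to which many nuclear receptors bind, was in 0 of the 8 windows, against 14% of all windows. An inverted pair of these hexamers 1 base apart, the arrangement known for FXR, was in 0 of the 8 and in 2 of the 32851. The matches describe these windows and not which factors bind there. No sequence is shown for *Colec10* or *Pdgfrb*.

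Total counts were 1009593 to 18342272 per vehicle mouse, 10990531 to 22421506 per OCA mouse, and 12513715 to 22128216 per INT-787 mouse. The lowest total belonged to vehicle replicate 6, in which single members had as few as 7 counts (*Ngfr*), whereas no member had fewer than 39 counts in a mouse given a drug. Vehicle replicate 5 also stood apart. Genes with few counts that lie under exons of a highly expressed gene on the opposite strand (14 genes) took 0.0155% of its counts, compared with 0.000891% to 0.00193% in the other 27 mice. How the counting used strand is not given in the sources used here, so reads of such gene pairs cannot be told apart, and exons of *Reln*, *Des*, and *Pdgfra* share 246, 220, and 622 bases with annotated genes of the opposite strand. *Hgf* shares 484 exon bases with a gene on its own strand. Values without vehicle replicates 5 and 6 are given below for *Lrat*, *Des*, and *Colec11* and for the other named genes that were no longer called without these mice.

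Levels are given as CPM, the count per 1e+06 counts of the mouse after TMM scaling. Groups were compared with the quasi-likelihood test of edgeR, with p adjusted by Benjamini-Hochberg over the 12580 genes, and genes with adjusted p values of 0.05 or less are said to have changed. Adjusted p values come from edgeR where no other tool is given. Levels of different genes can be compared only per kilobase of exon. In vehicle mice, *Colec11*, which encodes a secreted collectin, was the highest, at 40.4 ± 6.91 CPM per kilobase (SD, n = 10), and exceeded the next gene in 10 of 10 mice. *Pdgfrb* (7.50 ± 2.09) and *Lrat* (6.29 ± 1.24) followed, and *Pdgfrb* was above *Lrat* in 6 of 10 mice. *Reln* (5.13 ± 1.80) and *Des* (4.07 ± 1.13) came next, each below the gene before it in 8 of 10 mice. The lower part of the order was *Colec10* (3.67 ± 1.23), *Ngfr* (2.53 ± 0.689), *Pdgfra* (2.49 ± 0.551), and *Hgf* (2.20 ± 0.770) CPM per kilobase. *Des* against *Colec10* and *Ngfr* against *Pdgfra* were each higher in 5 of 10 mice, so these neighbors had no order beyond their spread. Defining stellate markers were thus present in every mouse, and no member was at 0 in any group.

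**Figure D1:**
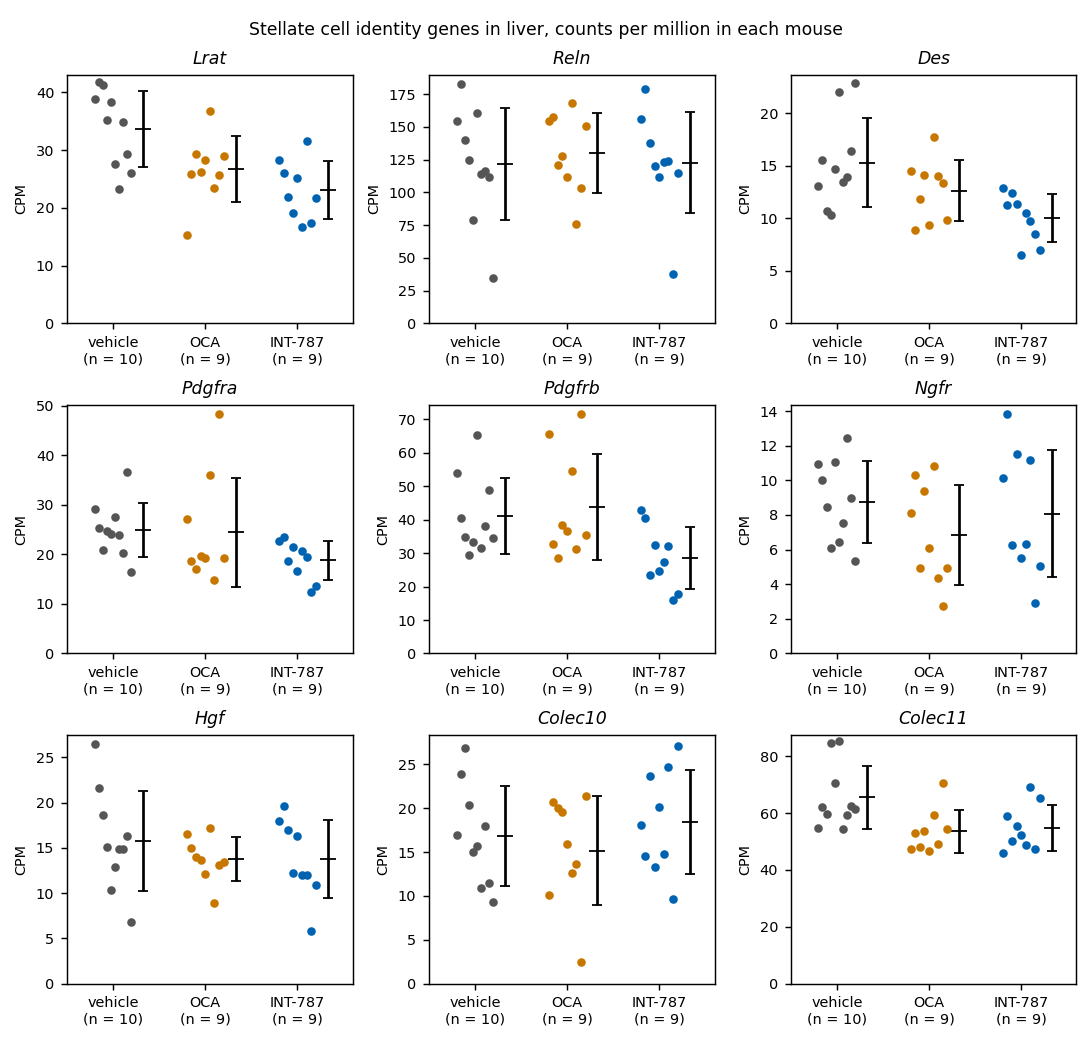
Level of each of the 9 genes in each mouse, in CPM on a linear axis from 0, by treatment group. Points are mice and bars are the mean and SD of the group. All 9 INT-787 mice lay below the vehicle median of 34.97 CPM for *Lrat* and of 14.3 CPM for *Des*, whereas the groups overlapped for *Reln*, *Hgf*, *Ngfr*, and *Colec10*.

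With INT-787, 2 of the 9 genes fell compared with vehicle, *Lrat* and *Des*, and 0 rose. The other 7 did not pass the test, and 5 of the 9 had an unadjusted p under 0.05, compared with 32.3% of all tested genes. Across all tested genes, 19.6% were called in this comparison, 10.2% higher and 9.48% lower, and 2 of 9 is close to the share of all genes called in either direction. OCA changed 0 of the 9 genes compared with vehicle, with a background of 6.6% (4.15% higher and 2.45% lower), and 2 of the 9 (*Lrat* and *Colec11*) had an unadjusted p under 0.05, compared with 18.5% of all tested genes. With INT-787 compared directly with OCA, 0 of the 9 genes passed, with a background of 5.38% (2.19% higher and 3.19% lower), and 3 of the 9 (*Des*, *Pdgfra*, and *Pdgfrb*) had an unadjusted p under 0.05, compared with 18.9% of all tested genes. DESeq2 called 3 of 9 (*Lrat*, *Des*, and *Pdgfrb*) with INT-787 compared with vehicle, 0 of 9 with OCA compared with vehicle, and 1 of 9, *Pdgfrb*, with INT-787 compared with OCA. The median log2 fold change over the 9 genes was -0.24 with INT-787 and -0.22 with OCA compared with vehicle, and the medians over all tested genes were -0.001 and 0.018. Several marker lists of other liver cells also had negative medians with INT-787: sinusoidal endothelial (-0.33), macrophage (-0.30), cholangiocyte (-0.33), portal fibroblast (-0.51), and vascular smooth muscle (-0.31). Hepatocyte (0.34) and mesothelial (0.29) lists were positive. With OCA, the endothelial (-0.26) and macrophage (-0.21) medians were negative, and the others were 0.15 to 0.49. A negative median was thus not particular to the 9 genes. Both drugs were compared with the same vehicle mice.

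*Lrat* encodes lecithin retinol acyltransferase, the enzyme that esterifies retinol for storage, and is widely used as a stellate-specific marker. In vehicle mice it ranged from 23.3 to 41.8 CPM with a median of 34.97. In INT-787 mice it ranged from 16.7 to 31.6 CPM with a median of 21.8. All 9 INT-787 mice were below the vehicle median and 5 were below every vehicle mouse, although the ranges overlapped. The log2 fold change was -0.55 ± 0.14 (SE), or 0.682 of the vehicle level (95% CI, 0.563 to 0.827), with adjusted p = 0.0040. With OCA, *Lrat* ranged from 15.3 to 36.8 CPM with a median of 26.2, and 8 of 9 mice were below the vehicle median. Its log2 fold change with OCA was -0.35 ± 0.14, which did not pass the test (adjusted p = 0.14). The direct comparison of INT-787 with OCA gave a log2 difference of -0.21 (95% CI, -0.49 to 0.076; adjusted p = 0.46), so a difference between the drugs in *Lrat* was not shown. Without vehicle replicates 5 and 6, the fall with INT-787 was -0.55 on the log2 scale (adjusted p = 0.0079).

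*Des* encodes desmin, a muscle-type intermediate filament protein that also marks rodent stellate cells. It ranged from 10.3 to 22.9 CPM (median, 14.3) in vehicle mice, from 8.85 to 17.7 CPM (median, 13.3) in OCA mice, and from 6.46 to 12.9 CPM (median, 10.5) in INT-787 mice. Again all 9 INT-787 mice were below the vehicle median, 4 were below every vehicle mouse, and 8 of 10 vehicle mice were above every INT-787 mouse. *Des* fell with INT-787 by 0.58 on the log2 scale (SE, 0.16), to 0.670 of the vehicle level (95% CI, 0.538 to 0.834; adjusted p = 0.0080). With OCA the log2 fold change was -0.24 ± 0.15 (adjusted p = 0.45). All 9 INT-787 mice were below the OCA median, and the log2 difference between the drugs was -0.34 (95% CI, -0.66 to -0.020), which did not pass after adjustment (adjusted p = 0.23). Without vehicle replicates 5 and 6, it fell by 0.54 with INT-787 (adjusted p = 0.019).

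Of 8 other intermediate filament genes tested, 1 rose and 1 fell with INT-787 compared with vehicle, and the median log2 fold change was -0.24, with 6 of the 8 below 0. Upper-quartile normalization called 1 higher and 3 lower. *Vim* (vimentin), the filament protein of mesenchymal cells, fell from 129 ± 32.2 to 86.0 ± 10.6 CPM (log2 fold change, -0.59 ± 0.17; adjusted p = 0.014; without vehicle replicate 10 and INT-787 replicate 8, -0.44 and adjusted p = 0.063), and *Synm* (synemin), a partner of desmin, rose from 2.21 ± 0.728 to 3.61 ± 1.06 CPM (0.73 ± 0.19; adjusted p = 0.0068). With OCA, 1 of the 8 changed: *Nes* (nestin) fell by 0.64 on the log2 scale (adjusted p = 0.028). Between INT-787 and OCA, 1 of the 8, *Vim*, differed (-0.71 ± 0.17; adjusted p = 0.013).

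*Pdgfrb* and *Pdgfra* encode the receptors for platelet-derived growth factors (PDGFs), which are strong mitogens for stellate cells. *Pdgfrb* ranged from 29.5 to 65.3 CPM (median, 36.5) in vehicle mice, from 28.5 to 71.6 CPM (median, 36.6) in OCA mice, and from 16.1 to 42.9 CPM (median, 27.3) in INT-787 mice. In the INT-787 group, 5 of 9 mice were below every vehicle mouse and also below every OCA mouse, whereas the vehicle and OCA ranges nearly coincided. Compared with vehicle, *Pdgfrb* in INT-787 mice had a log2 fold change of -0.49 ± 0.19 (95% CI, -0.88 to -0.10), just outside the threshold (adjusted p = 0.067). Compared with OCA it was -0.62 ± 0.19 (95% CI, -1.01 to -0.23; adjusted p = 0.054). Each of these calls depended on the processing, passing in 7 and 10 of 38 alternatives, respectively. DESeq2 gave adjusted p values of 0.041 and 0.035, and leaving out single mice gave 0.032 to 0.13 and 0.029 to 0.17.

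*Pdgfra* ranged from 16.3 to 36.6 CPM (median, 24.5) in vehicle mice, from 14.7 to 48.4 CPM (median, 19.3) in OCA mice, and from 12.4 to 23.5 CPM (median, 19.4) in INT-787 mice. All 9 INT-787 mice were below the vehicle median, but the OCA and INT-787 medians were alike, and the OCA mean was carried by its highest mice. The log2 fold changes were -0.40 ± 0.18 with INT-787 (adjusted p = 0.12) and -0.015 ± 0.18 with OCA (95% CI, -0.38 to 0.35; adjusted p = 0.99). The log2 difference between INT-787 and OCA was -0.38 ± 0.18 (adjusted p = 0.25). OCA replicate 8 had the highest level of both receptors, and without it the log2 difference between INT-787 and OCA was -0.20 for *Pdgfra* and -0.50 for *Pdgfrb*, the nearest to 0 of all single omissions. In that same mouse *Colec10* was at 2.42 CPM and *Ngfr* at 2.73 CPM, the lowest of all 28 mice. The log2 ratio of *Pdgfra* to *Pdgfrb* CPM was -0.71 ± 0.32 in vehicle mice, -0.87 ± 0.23 in OCA mice, and -0.56 ± 0.21 in INT-787 mice, with overlapping ranges.

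None of the 4 PDGF ligand genes passed the test in any comparison (4 tested). With INT-787 compared with vehicle, the log2 fold changes were -0.19 for *Pdgfa*, -0.50 for *Pdgfb* (adjusted p = 0.075), -0.40 for *Pdgfc* (adjusted p = 0.12), and -0.13 for *Pdgfd*. With OCA they were -0.27, -0.09, -0.11, and 0.19, with adjusted p values of at least 0.40. Of 6 genes known to be induced early by PDGF, 1 rose and 1 fell with INT-787. *Ccnd1* (cyclin D1) rose from 137 ± 20.1 CPM in vehicle mice to 260.4 ± 70.4 with OCA and 395 ± 69.2 with INT-787 (adjusted p = 1.3e-05 and 3.1e-10), and *Sphk1* (sphingosine kinase) fell by 0.73 on the log2 scale with INT-787 (adjusted p = 0.025). *Ccnd1* is also expressed by hepatocytes, and it was the 1 gene of the 6 that changed with OCA and the 1 that differed between the drugs (0.60 ± 0.14; adjusted p = 0.0064). Between the drugs, 2 were higher with DESeq2 size factors, and 2 were higher and 1 lower by DESeq2. With INT-787 compared with vehicle, upper-quartile normalization called 1 higher and 2 lower.

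*Reln* encodes reelin, a large secreted glycoprotein made in the liver by stellate cells. It ranged from 34.3 to 182.6 CPM (median, 120.5) in vehicle mice, from 75.5 to 168.6 CPM (median, 127) in OCA mice, and from 37.6 to 179 CPM (median, 123) in INT-787 mice. The 3 distributions overlapped almost fully, and the log2 fold changes were 0.017 with INT-787 (95% CI, -0.43 to 0.47; adjusted p = 0.97) and 0.10 with OCA (95% CI, -0.35 to 0.55; adjusted p = 0.88). The interval for INT-787 did not reach the -0.55 measured for *Lrat*, but it overlapped the 95% CI of *Lrat* (-0.83 to -0.27). The difference between the genes was not tested. Among 5 tested genes for reelin receptors and adaptors, 0 rose with either drug, except that 1 rose with INT-787 when vehicle replicate 10 and INT-787 replicate 8 were left out. The receptor gene *Vldlr* fell from 13.7 ± 5.21 CPM to 7.21 ± 2.77 with INT-787 (log2 fold change, -0.92 ± 0.26; adjusted p = 0.0096) and to 6.62 ± 2.98 with OCA (-1.06 ± 0.26; adjusted p = 0.0081), and the adaptor gene *Dab2* fell with INT-787 (-0.49 ± 0.16; adjusted p = 0.031). *Dab2* was no longer called without vehicle replicates 5 and 6 (-0.47; adjusted p = 0.059) or without vehicle replicate 10 and INT-787 replicate 8 (-0.41; adjusted p = 0.084). The other receptor gene, *Lrp8*, was too low to be tested (0.241 ± 0.276 CPM in vehicle mice).

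*Hgf* encodes hepatocyte growth factor, which stellate cells secrete and hepatocytes answer through the receptor Met. It ranged from 6.85 to 26.4 CPM (median, 14.996) in vehicle mice, from 8.93 to 17.1 CPM (median, 13.6) in OCA mice, and from 5.86 to 19.6 CPM (median, 12.2) in INT-787 mice. *Hgf* did not pass the test with either drug, with a log2 fold change of -0.22 ± 0.19 in both comparisons (adjusted p = 0.46 with INT-787 and 0.61 with OCA). The log2 difference between the drugs had a 95% CI of -0.39 to 0.39. Genes of the receptor and of HGF processing did change: of 9 tested, 4 rose and 1 fell with INT-787, and 2 rose with OCA. *Met* rose from 74.7 ± 14.8 CPM to 101 ± 11.4 with INT-787 (log2 fold change, 0.44 ± 0.10; adjusted p = 0.0026) and to 96.6 ± 12.9 with OCA (0.38 ± 0.10; adjusted p = 0.022). *Serpinf2*, which encodes the plasmin inhibitor, rose with both drugs (0.35, adjusted p = 0.010, and 0.55, adjusted p = 2.8e-04), *Hpn*, the hepsin protease that activates HGF, rose with INT-787 (0.39; adjusted p = 0.0056), and *Plau*, the urokinase gene, fell with INT-787 (-0.77; adjusted p = 0.0051). None of the 9 differed between the drugs, except that 1 was lower with INT-787 when vehicle replicates 5 and 6 were left out. With INT-787 compared with vehicle, 2 in place of 1 fell with upper-quartile normalization and with DESeq2.

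*Ngfr* encodes the p75 neurotrophin receptor, which in the liver is found on stellate cells. It ranged from 5.37 to 12.4 CPM (median, 8.72) in vehicle mice, from 2.73 to 10.8 CPM (median, 6.10) in OCA mice, and from 2.93 to 13.8 CPM (median, 6.30) in INT-787 mice. The ranges overlapped, although 4 of 9 OCA mice and 2 of 9 INT-787 mice were below every vehicle mouse and 1 INT-787 mouse was above every vehicle mouse. *Ngfr* did not pass with INT-787 (log2 fold change, -0.14 ± 0.25; adjusted p = 0.76) or OCA (-0.38 ± 0.25; adjusted p = 0.45). The interval for INT-787, -0.64 to 0.36, includes changes as large as those of *Lrat* and *Des*. Of 5 tested genes for neurotrophins and their receptors, 0 changed with INT-787 (1 was lower with upper-quartile normalization) and 1 with OCA: *Ntrk2* rose from 46.8 ± 8.26 to 69.6 ± 11.99 CPM (0.56 ± 0.11; adjusted p = 7.3e-04), and it was lower with INT-787 than with OCA (-0.48 ± 0.11; adjusted p = 0.0086).

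*Colec10* and *Colec11* encode the liver collectins CL-L1 and CL-K1, secreted lectins that bind sugars on microbes and start the lectin pathway of complement. *Colec11* ranged from 54.6 to 85.5 CPM (median, 61.8) in vehicle mice, from 46.7 to 70.4 CPM (median, 53.2) in OCA mice, and from 45.8 to 69.0 CPM (median, 52.1) in INT-787 mice. In the OCA group 7 of 9 mice, and in the INT-787 group 5 of 9, were below every vehicle mouse, yet the shift was small. The log2 fold changes were -0.27 ± 0.098 with OCA (adjusted p = 0.096) and -0.24 ± 0.098 with INT-787 (adjusted p = 0.081), and neither passed. Without OCA replicate 8, the highest OCA mouse, the difference for OCA passed (-0.33; adjusted p = 0.028). Without INT-787 replicate 7, the highest INT-787 mouse, the difference for INT-787 passed (-0.29; adjusted p = 0.039), and it also passed with upper-quartile normalization (-0.30; adjusted p = 0.030). In all, 2 of 38 alternatives passed for INT-787 and 1 of 38 for OCA. Without vehicle replicates 5 and 6, the log2 fold changes were -0.18 with INT-787 (adjusted p = 0.22) and -0.22 with OCA (adjusted p = 0.24). The highest vehicle value, 85.5 CPM, was that of vehicle replicate 6 and came from 93 counts. A difference between the drugs in *Colec11* was not shown (0.033; 95% CI, -0.17 to 0.24).

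*Colec10* ranged from 9.33 to 26.8 CPM (median, 16.3) in vehicle mice, from 2.42 to 21.4 CPM (median, 15.9) in OCA mice, and from 9.63 to 27.1 CPM (median, 18.1) in INT-787 mice. It was the 1 member other than *Reln* with a positive log2 fold change with INT-787, 0.13 ± 0.25 (95% CI, -0.38 to 0.64; adjusted p = 0.78), and with OCA the value was -0.16 ± 0.25 (adjusted p = 0.82). Of 7 other tested genes for collectins, ficolins, and lectin-pathway proteases, 1 rose with INT-787 (*Masp2*, 0.25 ± 0.091; adjusted p = 0.046) and 1 fell with OCA (*Fcna*, ficolin A, -0.79 ± 0.19; adjusted p = 0.0059). Compared with OCA, INT-787 mice had higher *Fcna* (1.06 ± 0.19; adjusted p = 6.4e-04) and *Mbl2*, which encodes mannose-binding lectin (0.58 ± 0.17; adjusted p = 0.042). *Masp2* was not called with DESeq2 size factors (0.25; adjusted p = 0.056), with upper-quartile normalization (0.19; adjusted p = 0.12), or without vehicle replicates 5 and 6 (0.27; adjusted p = 0.053). *Mbl2* was not called with upper-quartile normalization (0.55; adjusted p = 0.051) or without vehicle replicate 10 and INT-787 replicate 8 (0.43; adjusted p = 0.097).

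**Figure D2:**
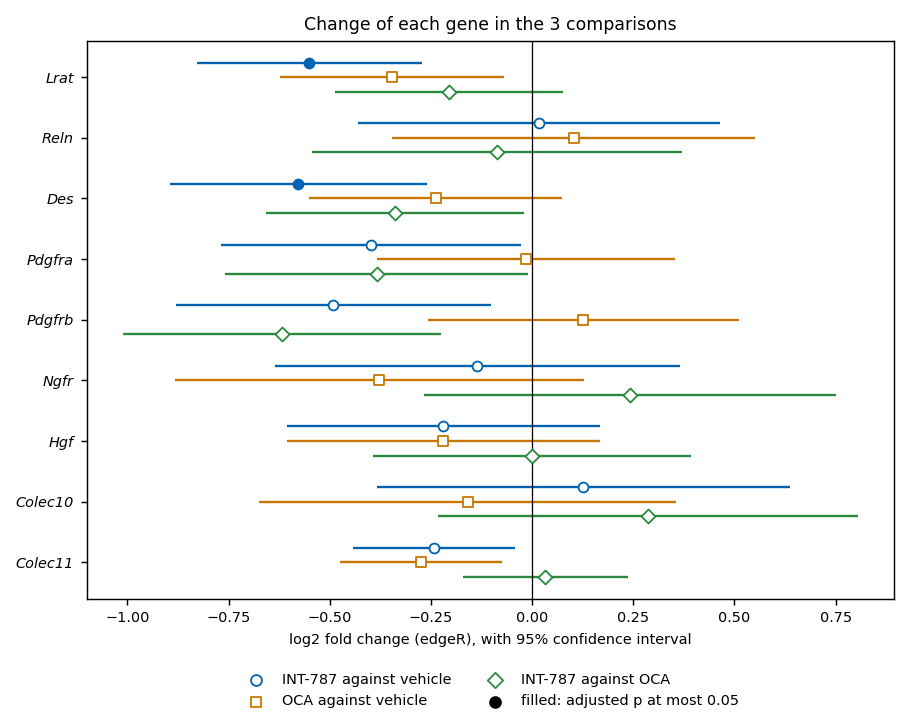
Log2 fold change of each of the 9 genes (horizontal axis) from edgeR with its 95% confidence interval, for INT-787 against vehicle (circles), OCA against vehicle (squares), and INT-787 against OCA (diamonds). Filled symbols have an adjusted p of at most 0.05, which applies to *Lrat* (-0.55) and *Des* (-0.58) with INT-787, and *Pdgfrb* lies lowest for INT-787 against OCA (-0.62).

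A longer list of stellate cell identity genes, none of them among the 9, was read beside them. Of 29 tested, 1 rose and 2 fell with INT-787 compared with vehicle, with a median log2 fold change of -0.080, and 0 rose and 2 fell with OCA, with a median of -0.056 (1 fell without vehicle replicates 5 and 6, or without vehicle replicate 10 and INT-787 replicate 8). *Steap4*, a metalloreductase gene, fell with INT-787 from 290.2 ± 82.7 to 188 ± 28.9 CPM (-0.63 ± 0.12; adjusted p = 2.9e-04), and *Tlcd4* rose from 329 ± 66.4 to 450.02 ± 75.9 CPM (0.45 ± 0.13; adjusted p = 0.014). With other scalings in edgeR, 1 was higher and 6 lower (upper quartile) or 1 higher and 3 lower (DESeq2 size factors), and the DESeq2 test, which kept 30 of the genes, called 2 higher and 4 lower. Compared with OCA, INT-787 mice had 3 genes higher and 1 lower, including *Mapt*, which encodes the microtubule protein tau (0.96 ± 0.19; adjusted p = 0.0018), and *Ecm1*, a secreted regulator of latent TGF-β (0.57 ± 0.12; adjusted p = 0.0032), and 5 higher and 1 lower by DESeq2. *Mapt* had fallen with OCA from 22.3 ± 4.16 to 13.1 ± 4.57 CPM (-0.74 ± 0.19; adjusted p = 0.011).

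Other genes of vitamin A handling moved in both directions around *Lrat*. Of 15 tested, 4 rose and 4 fell with INT-787, and 3 rose and 3 fell with OCA. With INT-787, upper-quartile normalization called 3 higher and 6 lower, and DESeq2 4 higher and 5 lower. *Rbp4*, the plasma retinol carrier made by hepatocytes, rose from 2386 ± 625.3 CPM to 3698 ± 605 with INT-787 (0.63 ± 0.13; adjusted p = 4.9e-04) and rose with OCA (0.47 ± 0.13; adjusted p = 0.020). *Cyp26a1*, a retinoic acid hydroxylase, rose with INT-787 (1.13 ± 0.26; adjusted p = 0.0021) and OCA (1.01 ± 0.26; adjusted p = 0.014), and *Rdh10*, a retinol dehydrogenase, rose with INT-787 (0.45 ± 0.092; adjusted p = 5.0e-04). *Ces1d*, a carboxylesterase gene, fell with INT-787 (-0.66 ± 0.16; adjusted p = 0.0027) and OCA (-1.21 ± 0.16; adjusted p = 3.2e-06), and was higher with INT-787 than with OCA (0.55 ± 0.16; adjusted p = 0.039). The list holds genes of both hepatocytes and stellate cells.

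Genes of stellate cell activation fell with INT-787 in most cases. Of 24 tested, 19 fell and 1 rose with INT-787 compared with vehicle, with a median log2 fold change of -0.86, and 18 were lower and 0 higher than with OCA, with a median of -0.99. With OCA compared with vehicle, 2 rose and 1 fell, with a median of 0.11, and 1 in place of 2 rose with DESeq2 size factors, with upper-quartile normalization, without vehicle replicates 5 and 6, and without vehicle replicate 10 and INT-787 replicate 8. Several of these genes were named by the study from these same mice, so the count is not independent evidence of its direction. *Timp1*, the inhibitor of matrix metalloproteinases, fell with INT-787 from a mean of 7.88 to 2.32 ± 0.878 CPM (SD, n = 9; -1.71 ± 0.21; adjusted p = 2.3e-07), and *Tagln*, a smooth muscle actin-binding protein gene, from 21.3 ± 6.34 to 10.0 ± 1.69 CPM (-1.11 ± 0.15; adjusted p = 1.5e-06). *Loxl2*, a collagen cross-linking enzyme gene, fell by 0.99 on the log2 scale (adjusted p = 1.7e-05), and *Mmp13*, a collagenase gene, by 1.45 (adjusted p = 3.8e-06). *Mmp13* was also the gene that fell with OCA (-0.70 ± 0.20; adjusted p = 0.026). Without vehicle replicate 10 and INT-787 replicate 8, 15 fell and 1 rose with INT-787, with a median of -0.82.

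**Figure D3:**
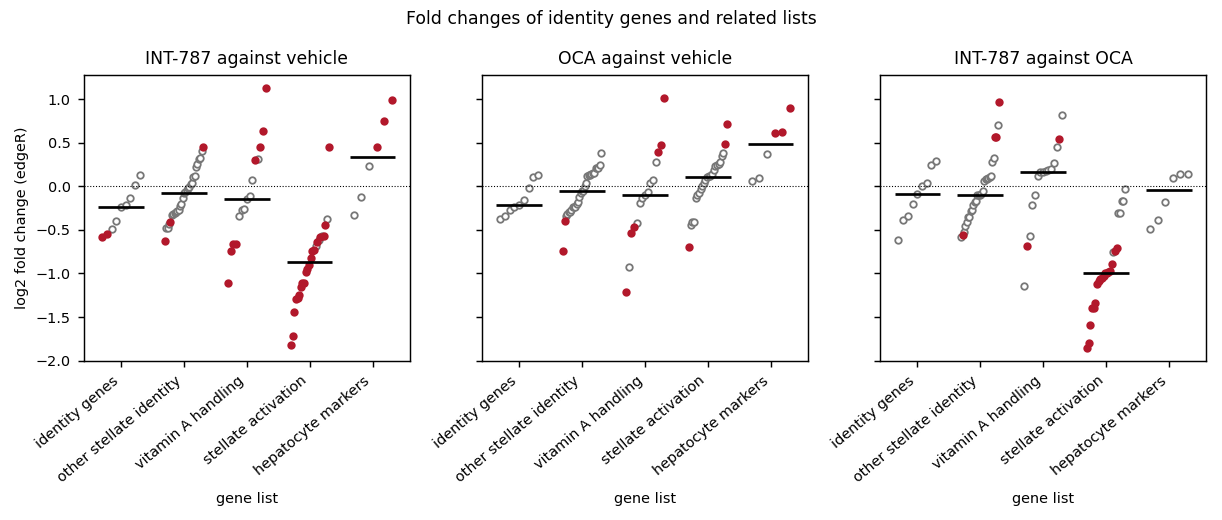
Log2 fold change (vertical axis, edgeR) of every tested gene in 5 lists, the 9 identity genes, other stellate identity genes, vitamin A handling, stellate activation, and hepatocyte markers, in the 3 comparisons. Points are genes, filled red points have an adjusted p of at most 0.05, and horizontal lines are list medians. With INT-787 compared with vehicle the median was -0.24 for the 9 genes and -0.86 for the activation genes.

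The distance between activation and identity was also read within each mouse, as the log2 ratio of *Col1a1* CPM (type I collagen) to the CPM of an identity gene. *Col1a1* and *Acta2* (smooth muscle actin) were chosen for this after their values were seen, and the ratios are given without a test. The log2 ratio of *Col1a1* to *Lrat* was 3.57 ± 0.65 in vehicle mice, 4.21 ± 0.77 in OCA mice, and 2.80 ± 0.61 in INT-787 mice, with 4 of 9 INT-787 mice below every vehicle mouse. To *Des* it was 4.72 ± 0.45, 5.29 ± 0.59, and 4.01 ± 0.60, and 6 of 9 INT-787 mice were below every vehicle mouse. To *Pdgfrb* it was 3.298 ± 0.40, 3.54 ± 0.31, and 2.53 ± 0.28, and 7 of 9 were. For each of these 3 genes the mean ratio was lowest in the INT-787 group. For *Acta2* the ratio to *Lrat* was -1.15 ± 0.88 in vehicle mice and -1.60 ± 0.68 in INT-787 mice, and 1 of 9 INT-787 mice was below every vehicle mouse, so the groups overlapped widely. For *Acta2* to *Des* the count was also 1 of 9. It was 2 of 9 to *Pdgfra*, *Pdgfrb*, and *Colec11*, 3 of 9 to *Reln* and *Hgf*, and 5 of 9 to *Ngfr* and *Colec10*.

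**Figure D4:**
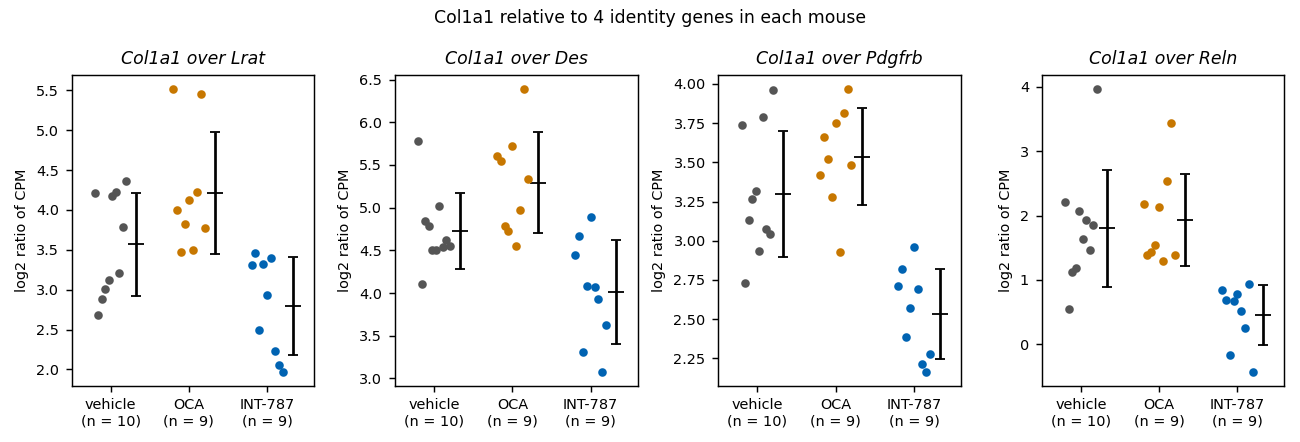
Log2 ratio of *Col1a1* CPM to the CPM of *Lrat*, *Des*, *Pdgfrb*, or *Reln* in each mouse (vertical axis, which does not start at 0), by group. Points are mice and bars are mean and SD. The *Col1a1* to *Pdgfrb* ratio was 3.298 in vehicle and 2.53 in INT-787 mice on average, and 7 of 9 INT-787 mice were below every vehicle mouse.

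Variation between mice of the same group showed which of the 9 genes moved together. Each value was taken as log2 CPM minus the mean of its group, over 28 mice that share their library and its scaling between genes, and the correlations are descriptions without a test. The 36 pairs had Pearson's r from -0.50 to 0.89 with a median of 0.32, and 6 were above 0.5. The closest pair was *Reln* and *Hgf* (r = 0.89; Spearman's rho = 0.72), and it was 0.78 without the 2 mice farthest from the median of *Reln*. *Pdgfra* and *Pdgfrb* formed the next pair (r = 0.82; rho = 0.84). *Lrat* and *Des*, which both fell with INT-787, did not move together within groups (r = -0.19; rho = -0.18).

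*Col1a1* varied with *Pdgfrb* (r = 0.80; rho = 0.74; 0.77 without the 2 mice farthest in *Pdgfrb*) and *Pdgfra* (r = 0.62), and not with *Lrat* (r = -0.092). Its correlation with *Colec10* was negative (r = -0.54; rho = -0.58), as was that of *Pdgfra* with *Colec10* (r = -0.50; -0.19 without OCA replicates 6 and 8). Differences between these correlations were not tested.

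**Figure D5:**
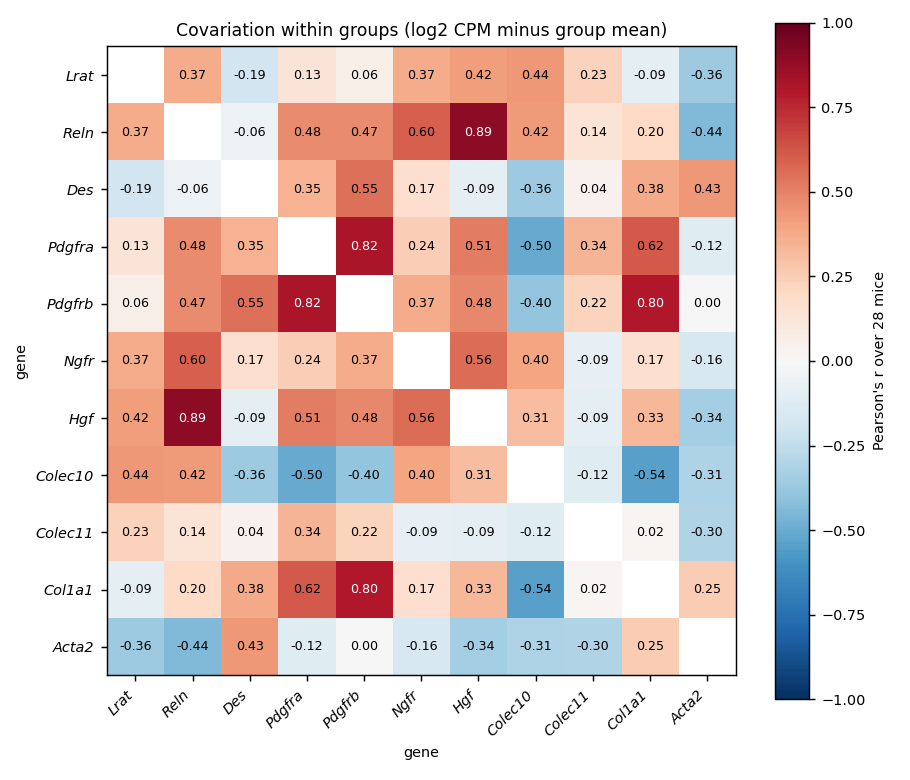
Pearson's r between genes (both axes) over 28 mice, of log2 CPM minus the group mean, for the 9 identity genes with *Col1a1* and *Acta2*. Red is positive and blue negative. *Reln* with *Hgf* (0.89) and *Pdgfra* with *Pdgfrb* (0.82) are the closest pairs among the 9, and *Pdgfrb* also follows *Col1a1* (0.80).

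The genes most like each member, out of all tested genes, separated the 9 further. For *Pdgfrb* they were the matrix genes *Col15a1*, *Mmp2*, and *Col6a3* (r = 0.94, 0.93, and 0.93), and for *Pdgfra* they were *Bicc1*, *Ptgfrn*, and *Smoc2* (r = 0.93, 0.93, and 0.92). For *Lrat* the values were lower, with *Zfx* (0.66), *Cyp26b1* (0.61), which encodes a retinoic acid hydroxylase, and *Kctd12* (0.60). Without OCA replicate 1 and vehicle replicate 7, the values were 0.71 for *Zfx*, 0.47 for *Cyp26b1*, and 0.70 for *Kctd12*. *Des* was closest to *Thap4* (0.73), *Hspbp1* (0.71), and *Cd248* (0.70), the last encoding endosialin, a marker of stellate cells and other pericytes. *Colec10* was closest to *Bmp10* (0.88), *Pdk1* (0.85), and *Cyp46a1* (0.84), and *Colec11* to *Npc2* (0.75), *Ddx39b* (0.70), and *Akr1b3* (0.70). *Ngfr* was closest to *Sept9* (0.83), *Nsmf* (0.82), and *Klb* (0.81). All of these are the highest of 12580 genes, so high values are built into the choice.

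*Reln* was closest to *Tfcp2l1* (0.93), *Ppp4r1* (0.91), and *Lpp* (0.90), and *Hgf* to *Atrnl1* (0.91), *Ralgapb* (0.89), and *Slc8a1* (0.89). Both patterns leaned in part on vehicle replicate 10 and INT-787 replicate 8, in which *Reln* was at 34.3 and 37.6 CPM and *Hgf* at 6.85 and 5.86 CPM, the lowest of their groups. With these 2 mice left out, r was 0.80, 0.77, and 0.79 for *Reln* and 0.81, 0.81, and 0.84 for *Hgf*, in the same order of genes. The Spearman correlation across 12576 genes between a gene's deviation and its exon length was -0.51 in vehicle replicate 10, the lowest of 28 mice, -0.35 in OCA replicate 7, -0.33 in vehicle replicate 5, and -0.26 in INT-787 replicate 8, and it was 0.51 in vehicle replicate 1, the highest. *Reln* has the longest exon sequence of the 9, 23738 bases. The part of transcript length in these values was not tested. Without both mice, *Lrat* and *Des* were still called with INT-787 compared with vehicle (-0.55, adjusted p = 0.0058, and -0.45, adjusted p = 0.037), and *Reln* had a log2 fold change of 0.025.

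Markers of other liver cells were read in the same mice, and their part in these results was not tested. The 6 hepatocyte markers summed to 60975 to 134975 CPM in vehicle mice, 104639 to 197198 in OCA mice, and 94432 to 167109 in INT-787 mice. With each drug 3 of 6 rose and 0 fell, including *Alb* (albumin; 0.45 with INT-787, adjusted p = 0.025, and 0.62 with OCA, adjusted p = 0.0046), *Cps1* (0.99, adjusted p = 2.8e-06, and 0.89, adjusted p = 4.0e-05), and *Tat* (0.75, adjusted p = 0.0017, and 0.61, adjusted p = 0.023). *Alb* was not called with INT-787 under upper-quartile normalization (0.38; adjusted p = 0.051), and *Tat* was not called with OCA without vehicle replicates 5 and 6 (0.57; adjusted p = 0.064).

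The portal fibroblast markers summed to 57.8 to 98.3 CPM in vehicle mice, 62.0 to 225.1 in OCA mice, and 39.2 to 63.5 in INT-787 mice. Of 7 tested, 0 rose and 2 fell with INT-787, *Eln* (elastin; -1.43 ± 0.28; adjusted p = 3.8e-04) and *Fbln2* (fibulin 2; -0.62 ± 0.20; adjusted p = 0.025), 0 changed with OCA, and 3 differed between the drugs, all lower in INT-787 mice (*Eln*, -1.96; *Mfap4*, -1.16; *Dpt*, -1.11). The mean levels of *Pdgfrb* and *Pdgfra* were likewise lowest in the INT-787 group. The vascular smooth muscle markers, relevant to *Des*, summed to 93.3 to 171 CPM, 133 to 175 CPM, and 124 to 201 CPM in vehicle, OCA, and INT-787 mice. Of 4 tested, 1 rose with INT-787 (*Mylk*, 0.27; adjusted p = 0.035) and 0 changed otherwise. With INT-787 compared with vehicle, 3 of the 4 were below 0, the direction of *Des*, with a median log2 fold change of -0.31. That median was -0.085 without vehicle replicate 10 and INT-787 replicate 8. *Mylk* was not called with upper-quartile normalization or without vehicle replicates 5 and 6 (0.21; adjusted p = 0.11 in both). Mesothelial markers were near 0, at 1.10 to 6.34 CPM in sum over all mice, and 0 of 2 tested changed (1 rose with INT-787 compared with vehicle by DESeq2).

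Among the sinusoidal endothelial markers, 183 to 342 CPM in sum in vehicle, 165 to 262 in OCA, and 114 to 259.5 in INT-787 mice, 1 of 7 fell with INT-787 (*Fcgr2b*, -0.43 ± 0.12; adjusted p = 0.011) and 0 changed with OCA. The 1 became 4 with upper-quartile normalization, 3 with DESeq2, and 2 with DESeq2 size factors or without vehicle replicates 5 and 6. Of the 7, 6 were below 0 with INT-787 compared with vehicle and 7 with OCA. The macrophage markers summed to 307 to 507.5 CPM in vehicle, 278 to 688 in OCA, and 227 to 454.5 in INT-787 mice, and 1 of 7 fell with INT-787 (*Cd68*, -0.69 ± 0.15; adjusted p = 8.5e-04). The 1 became 2 with DESeq2 size factors, with upper-quartile normalization, with DESeq2, and without vehicle replicates 5 and 6. Below 0 were 5 of these 7 with INT-787 compared with vehicle and 7 with OCA. Between the drugs, *Cd68* was lower and *Marco* higher with INT-787 (-0.61, adjusted p = 0.013, and 2.63 ± 0.77, adjusted p = 0.037), and *Marco* was not called without vehicle replicate 10 and INT-787 replicate 8 (1.62; adjusted p = 0.15). The cholangiocyte markers summed to 488 to 805.5 CPM in vehicle, 447 to 1630.5 in OCA, and 342 to 545 in INT-787 mice. Of these 6, 1 fell with INT-787, *Spp1* (osteopontin), which is also on the activation list (-0.74 ± 0.17; adjusted p = 0.0021), and 0 changed with OCA. All 6 were below 0 with INT-787 compared with vehicle, and 2 were with OCA. No gene of these lists was at 0 in all mice of a group.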

How the data were processed

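Livers of 28 mice were measured by poly(A) RNA sequencing with a stranded kit. The authors deposited raw read counts by Ensembl gene, 1 column for each mouse and not normalized, after alignment to GRCm38 with STAR. The counting program, its strand setting, and any filter are not given in the sources used here. Groups came from the sample labels. From the counts, 12580 genes kept by filterByExpr were scaled by TMM and tested with the quasi-likelihood functions of edgeR 4.0.16 (R 4.3.3) in 1 model of the 3 groups without covariates, with p adjusted by Benjamini-Hochberg over the 12580 genes and a threshold of 0.05. CPM used TMM-scaled totals, and SE and 95% CI came from the fit. Annotation was GENCODE (GRCm38), which matched 21858 of 21935 genes. Python 3.11.15 with numpy 2.4.6 and pandas 2.3.3 made the summaries, and the fit was tested on simulated data.

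Total counts ranged from 1009593 to 22421506 per mouse, which limits precision most in vehicle replicate 6. The study's methods name DESeq2, which was run as an alternative (version 1.42.0), with limma-voom (limma 3.58.1), other scalings (DESeq2 size factors, upper quartile), no filter or at least 10 counts in every mouse, the 2 compared groups alone, the replicate number as a block, an adjusted p of at most 0.01, and each mouse left out. Leaving out vehicle replicates 5 and 6 together, or vehicle replicate 10 with INT-787 replicate 8, was added after seeing the data. The 9 genes and all lists were chosen with earlier results of these data known. Named from each list were the genes called in any comparison, at most 4 by smallest adjusted p, the ligands and receptors of the 9, and the 3 genes most correlated with each member. A gene that this rule selects is not reported here. *Col1a1*, *Acta2*, and genes behind single-mouse checks were named after their values were seen.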

Additional observations from a re-analysis of the deposited data

Results flagged for a closer look

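*Reln* in INT-787 replicate 8 was at 37.6 CPM, far below the other 8 INT-787 mice. Its gap to the next mouse was 0.524 of the range of the group, above the 95% limit of Dixon's test for 9 mice. This was the 1 value so marked among 27 sets of mice (9 genes in 3 groups), and chance marks about 1 in 20. This mouse was the lowest of its group in 6 of the 9 genes, *Reln*, *Hgf* (5.86 CPM), *Ngfr* (2.93 CPM), *Pdgfra* (12.4 CPM), *Pdgfrb* (16.1 CPM), and *Colec10* (9.63 CPM), and the correlation of its deviations with exon length was -0.26, with values of -0.51 to 0.51 over the 28 mice. Without this mouse, the log2 difference in *Reln* between INT-787 and OCA was 0.034 in place of -0.086, and no call changed.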

How the results depend on the processing

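*Lrat* and *Des* were called lower with INT-787 than with vehicle in 38 of 38 alternatives, with log2 fold changes of -0.62 to -0.50 and -0.64 to -0.45 and adjusted p values of 0.0011 to 0.011 and 0.0027 to 0.037. The count of called genes, 2, was 4 with upper-quartile normalization (with *Pdgfrb* and *Colec11*) and 4 with only the 2 groups compared (with *Pdgfra* and *Pdgfrb*), and 2 to 3 with single mice left out. For OCA compared with vehicle, single omissions gave 0 to 1 (*Colec11*, without OCA replicate 8). For INT-787 compared with OCA, 1 gene, *Pdgfrb*, was called with upper-quartile normalization, with at least 10 counts in every mouse, with DESeq2, and with limma-voom, and single omissions gave 0 to 1 (*Pdgfrb*, without INT-787 replicate 1 or 2, OCA replicate 2, 3, or 7, or vehicle replicate 6). The cause of these changes was not tested.

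The replicate block gave 3 called genes with INT-787 compared with vehicle, 0 with OCA, and 0 between the drugs. The labels give same-numbered mice nothing in common but the number, and whether they also shared a processing step is not known. The 27 pairs had correlations of -0.24 to 0.43 (median, 0.077), and 9 of 28 mice were closest to their own number.

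Signs changed only for values near 0, none of them called. *Reln* with INT-787 compared with vehicle was -0.039 (upper quartile), -0.011 (at least 10 counts), and -0.13 (replicate block), and -0.093 to 0.14 with single mice left out. With OCA compared with vehicle, *Reln* was -0.015 with the replicate block, -0.0091 without vehicle replicate 10 and INT-787 replicate 8, and -0.025 to 0.19 with single omissions, and *Pdgfra* was -0.20 to 0.068 with single omissions. Between the drugs, *Reln* was 0.034 without vehicle replicate 10 and INT-787 replicate 8 and -0.17 to 0.034 with single omissions. *Hgf* was 0.0096 (DESeq2 size factors), 0.013 (no filter), 0.011 (DESeq2), 0.0055 (2 groups), 2.0e-05 (without vehicle replicates 5 and 6), 0.099 (without vehicle replicate 10 and INT-787 replicate 8), and -0.081 to 0.099 with single omissions. *Colec11* was -1.6e-04 (upper quartile) and -0.015 to 0.091 with single omissions. *Ngfr* was too low to test with at least 10 counts in every mouse. The counts of 7 to 30 reads for several genes in vehicle replicate 6 limit what that mouse adds.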
